A study of Caenorhabditis elegans with 2 samples.

Results

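The genes described here are those of the hypoxia and hydrogen sulfide response of the nematode Caenorhabditis elegans, examined for chromatin regions occupied by the transcription factor PQM-1. The list named 10 genes: hif-1, egl-9, vhl-1, rhy-1, cysl-1, cysl-2, cysl-3, sqrd-1, sqrd-2 and ethe-1. Of these, 9 matched a protein-coding gene symbol of the Ensembl annotation for WBcel235, out of 19973 protein-coding genes in all, and sqrd-2 was not analysed here because its symbol matched none. A region of the authors' lists was counted for a gene when its summit lay in the gene body or up to 2000 bp upstream of any transcript start, and such a stretch is called the gene's window below.

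The chromatin came from whole hermaphrodites at the late embryonic stage of strain OP201, genotype unc-119(tm4063) III; wgIs201, collected 2 h after synchronization by egg bleaching. In this single transgenic line PQM-1 carries GFP and FLAG at its C terminus, and the fusion was precipitated with an anti-GFP antibody after sonication. The series holds 1 group with 2 biological replicates and no second genotype, oxygen level or sulfide exposure, so no comparison between conditions could be made; each value is set against the rest of the genome. No precipitation without the tag was analysed here, and in chromatin of whole embryos fewer occupied cells and weaker occupancy per cell cannot be told apart.

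HIF-1 is the worm's hypoxia-inducible factor, which pairs with AHA-1 and activates genes through elements with the core ACGTG or GCGTG. When oxygen is present, the prolyl hydroxylase EGL-9 modifies HIF-1, and VHL-1, the substrate receptor of a ubiquitin ligase, then targets it for degradation. RHY-1, a membrane protein related to acyltransferases, restrains HIF-1, whereas CYSL-1, a protein of the cysteine synthase family, binds EGL-9 and relieves HIF-1 of its inhibition when hydrogen sulfide accumulates. CYSL-2 acts as a cyanoalanine synthase, and CYSL-3 is a further relative of the same family. SQRD-1, a sulfide:quinone oxidoreductase, and ETHE-1, a persulfide dioxygenase, are mitochondrial enzymes that oxidize sulfide.

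The clearest occupancy lay upstream of hif-1, the only member with a region in the authors' reproducible list. At q ≤ 0.01, where q is the authors' false discovery rate of a region, the pooled list held regions at hif-1, sqrd-1 and cysl-3, and at q ≤ 0.05 also at rhy-1 and egl-9. vhl-1, cysl-1, cysl-2 and ethe-1 had only weak pooled regions, with q-values of 0.172 or more. The sequences around the strongest summits of the 5 genes at q ≤ 0.05 are shown because they differ in the elements they hold. They are given on the plus strand of the RefSeq genome of WBcel235, which corresponds to build ce11, and capitals mark the DAF-16 associated element TGATAAG, the GATA factor core GATAA and the hypoxia response element cores, either ACGTG or else GCGTG, on either strand.

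The hif-1 stretch is chrV:20778299-20778549, that of egl-9 is chrV:10466625-10466875, that of rhy-1 is chrII:9160212-9160462 and that of cysl-3 is chrV:3774888-3775138, each centred on the summit. The sqrd-1 stretch, chrIV:14219713-14219870, ends at the last base before the annotated 5' end of the transcript.
hif-1: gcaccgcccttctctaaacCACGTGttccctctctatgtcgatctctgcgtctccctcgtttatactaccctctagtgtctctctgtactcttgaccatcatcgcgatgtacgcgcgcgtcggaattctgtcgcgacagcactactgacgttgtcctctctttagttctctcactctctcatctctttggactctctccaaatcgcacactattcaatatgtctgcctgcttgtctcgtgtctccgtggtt
egl-9: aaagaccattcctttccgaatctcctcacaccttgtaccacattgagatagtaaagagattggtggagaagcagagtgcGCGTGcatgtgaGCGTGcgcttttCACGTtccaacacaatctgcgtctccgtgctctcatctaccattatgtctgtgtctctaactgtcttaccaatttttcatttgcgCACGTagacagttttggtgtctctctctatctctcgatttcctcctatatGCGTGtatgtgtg
rhy-1: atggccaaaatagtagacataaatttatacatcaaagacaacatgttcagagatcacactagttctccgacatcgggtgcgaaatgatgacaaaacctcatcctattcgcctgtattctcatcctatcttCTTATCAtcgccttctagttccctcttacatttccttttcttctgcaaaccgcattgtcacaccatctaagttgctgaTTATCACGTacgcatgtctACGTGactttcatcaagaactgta
cysl-3: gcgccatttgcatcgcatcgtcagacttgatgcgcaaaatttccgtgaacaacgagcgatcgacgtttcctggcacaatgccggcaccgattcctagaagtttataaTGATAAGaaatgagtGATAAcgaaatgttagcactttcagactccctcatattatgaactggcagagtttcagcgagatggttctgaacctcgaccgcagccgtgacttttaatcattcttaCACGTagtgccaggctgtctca
sqrd-1: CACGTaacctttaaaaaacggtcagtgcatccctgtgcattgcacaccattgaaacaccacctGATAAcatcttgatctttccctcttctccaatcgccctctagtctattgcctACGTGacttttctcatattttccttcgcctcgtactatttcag

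The peak lists hold 27694 pooled regions, 28996 regions of replicate 1 and 23228 of replicate 2, most of them relaxed calls, and read depth is unknown. The signal value is the authors' peak strength, and the rank orders a list by signal with 1 as the strongest. In the pooled list 1241 regions reached q ≤ 0.01. The smallest q-value was 0.00190, shared by 264 pooled regions, so the q-value does not order the strongest regions. Signal values are not scaled between lists and were compared only within a list.

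All 9 matched members had at least 1 pooled region in their window, against 65.8% of all protein-coding genes. The listed gene sqrd-2 is in none of these counts. At q ≤ 0.01 there were 3 of 9, against 7.21% of all genes, and at q ≤ 0.05 there were 5 of 9, against 12.5%. The reproducible list, identical to the top 669 pooled regions by signal, held 1 of 9, against 4.20%. The members' windows held 31 distinct pooled regions over 46.0 kb, or 0.674 per kb, against 0.297 per kb over the windows of all genes. The median window was 3.96 kb for the members and 4.03 kb for all genes. Of the 5 members at q ≤ 0.05, egl-9, hif-1 and sqrd-1 had wider windows, of 10.40, 6.85 and 6.57 kb. Those of rhy-1 and cysl-3 were 4.07 and 3.60 kb. The shares over all genes were not matched for window width. Most of the 31 regions were weak: 16 had a q-value above 0.5, and 14 overlapped another region of the same gene. By position 14 summits lay upstream, 9 in coding exons and 8 in introns, and none had a tRNA, snoRNA, snRNA or rRNA gene within 300 bp.

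**Figure D1:**
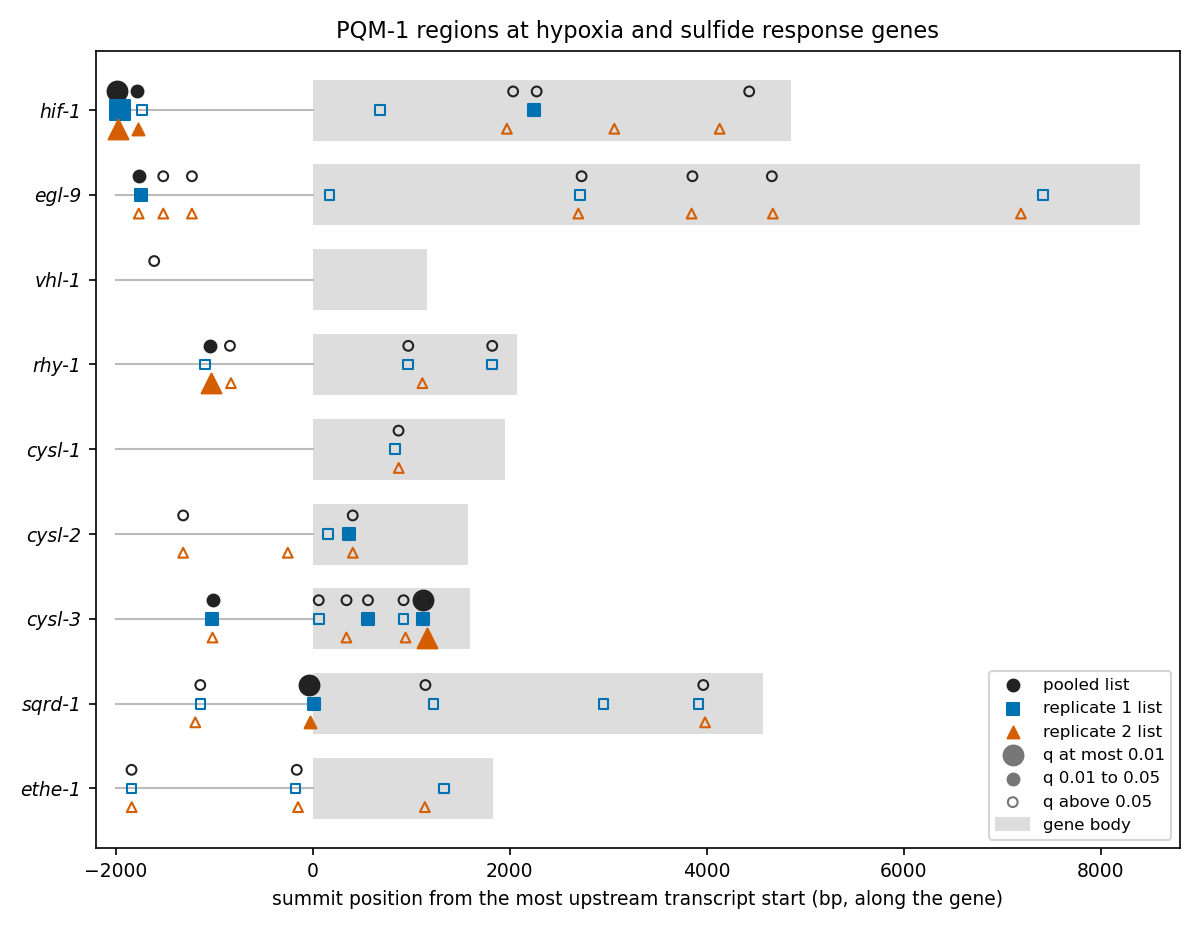
Summits of the regions at the 9 genes in the pooled (circles), replicate 1 (squares) and replicate 2 (triangles) lists, with the position from the most upstream transcript start in bp on the horizontal axis, grey bars for gene bodies and grey lines for the 2000 bp upstream. Large filled symbols are at q ≤ 0.01, small filled ones up to 0.05 and open ones above; the large symbols of all 3 lists coincide only near the left end of the hif-1 window.

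The hif-1 gene, at V from 20780407 to 20785260 on the plus strand, had its strongest pooled region at V from 20778209 to 20778638. The summit at 20778424 lay between genes, 1983 bp upstream of the first transcript start, just inside the window. It ranked 148 with a signal of 139.5 and a q-value of 0.00190 in the pooled list. In the list of replicate 1 it ranked 194 (signal 56.3, q = 0.00205), and in that of replicate 2 it ranked 134 (signal 84.7, q = 0.00465). Both replicates thus placed it among their strongest regions, with summits 31 bp and 10 bp downstream of the pooled one. Of all protein-coding genes 0.946% had an equally strong or stronger pooled region in their window, 1.24% did so in replicate 1 and 0.861% in replicate 2.

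A second pooled region, with its summit 1781 bp upstream, overlapped the first and ranked 1503 (signal 60.9, q = 0.0130). The replicates differed here: a region 1769 bp upstream ranked 1476 in replicate 2 (q = 0.0112). One 1731 bp upstream ranked 12717 in replicate 1 (q = 0.639). Inside the gene, 3 further pooled regions had q-values of 0.409, 0.843 and 0.872. The first of these, in an intron, lay 31 bp upstream of a later transcript start of hif-1. In replicate 2 a region with its summit 63 bp farther upstream ranked 10770 (q = 0.680). In replicate 1 the region that held this summit ranked 1967 (signal 27.4, q = 0.0384), but its own summit was 213 bp farther downstream, 26 bp from that of the next pooled region, in a coding exon, which lay in no region of replicate 2. The upstream region was thus strong in both replicates, and inside the gene the replicates placed their summits differently.

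No other protein-coding gene had the upstream hif-1 summit in its window, and hif-1 had the nearest transcript start. With the window shortened to 500 bp upstream, or restricted to promoters from 1000 bp upstream to 200 bp downstream, the strongest hif-1 region was the internal one at rank 6591. Within 100 bp of the upstream summit none of the 7 elements searched was present. The closest match was CACGTG, which reads ACGTG on both strands, at V from 20778318 to 20778323, 101 bp from the summit.

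Among the genes that hold HIF-1 in check, egl-9 and rhy-1 had moderate upstream regions and vhl-1 had almost none. The egl-9 gene, at V from 10468517 to 10476915, had the widest window, 10.4 kb, and 6 pooled regions. Its strongest, at V from 10466535 to 10466964 with the summit 1767 bp upstream, ranked 1807 (signal 57.2, q = 0.0224). Replicate 1 placed it at rank 1446 (signal 30.1, q = 0.0176) and replicate 2 at rank 4025 (signal 26.3, q = 0.219), with summits within 20 bp of the pooled one. The summit also lay in the annotated noncoding RNA genes F22E12.9 and F22E12.10. Of the other 5 egl-9 regions, with q-values between 0.590 and 0.845, only the one at rank 14781 had its summit in a region of replicate 1, and all 5 had theirs in a region of replicate 2.

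The rhy-1 gene, at II from 9161379 to 9163448, had a pooled region at II from 9160122 to 9160551, with its summit 1042 bp upstream, at rank 1330 (signal 63.5, q = 0.0117). The replicates differed here more than at hif-1. In replicate 2 it ranked 660 (signal 48.6, q = 0.00465, the smallest q-value of that list), and in replicate 1 it ranked 12195 (signal 15.3, q = 0.626). In replicate 1 the strongest rhy-1 region was instead in a coding exon, 970 bp downstream of the start, at rank 2983 (signal 24.4, q = 0.101). That exon region ranked 2386 in the pooled list (signal 51.7, q = 0.0518), and in replicate 2 a region with its summit 143 bp farther downstream ranked 2632 (q = 0.0982).

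vhl-1, at X from 11307356 to 11308518, had 1 pooled region, at rank 19697 (signal 23.4, q = 0.869). Its summit lay 1609 bp upstream of vhl-1 and 126 bp inside the neighbouring gene F08G12.1, whose start was nearer. Neither replicate's list held a region in the vhl-1 window. Of all protein-coding genes 55.9% had an equally strong or stronger pooled region.

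**Figure D2:**
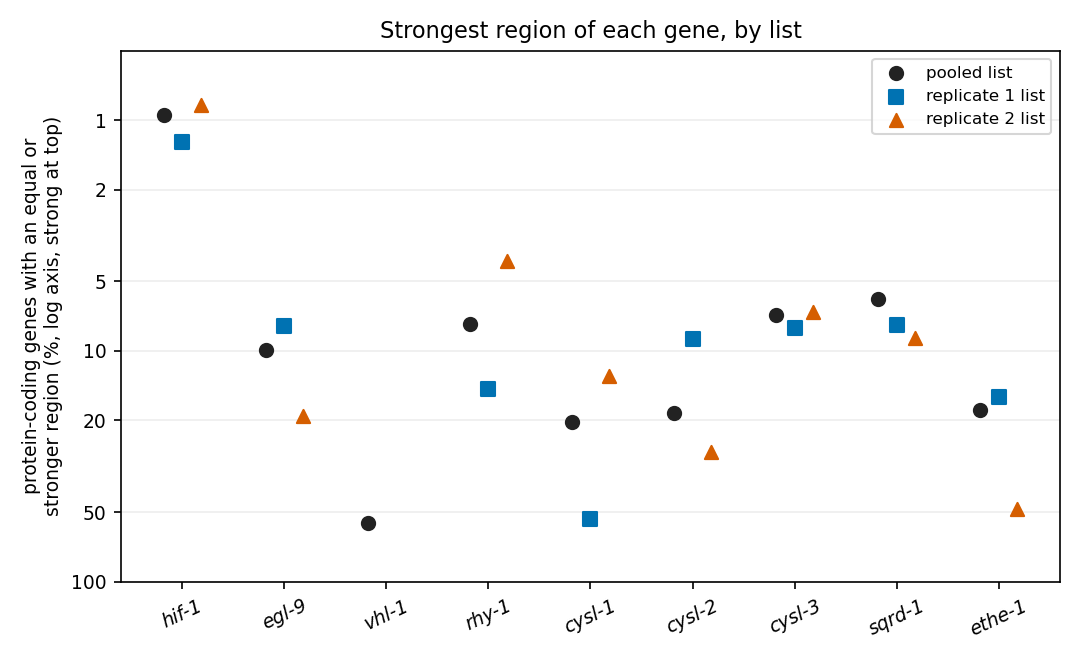
Strongest region of each gene, given as the percentage of protein-coding genes with an equally strong or stronger region in their window (vertical log axis, strong at the top), for the pooled (circles), replicate 1 (squares) and replicate 2 (triangles) lists. hif-1 sits between 0.861% and 1.24% in all 3 lists, and sqrd-1 and cysl-3 lie between 5.94% and 8.77%. Replicates 1 and 2 lie apart at cysl-1 (53.5% and 12.9%), rhy-1 (14.6% and 4.06%), ethe-1 (15.8% and 48.3%), cysl-2 (8.89% and 27.3%) and egl-9 (7.78% and 19.2%). At rhy-1, ethe-1 and cysl-2 the strongest region was a different one in each replicate, so their values do not compare the same region. vhl-1 had no region in either replicate.

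The cysteine synthase relatives differed from each other. cysl-3, at V from 3774536 to 3776136 on the minus strand, had 6 pooled regions, the strongest at V from 3774798 to 3775227, in an intron 1123 bp downstream of the start. It ranked 1188 in the pooled list (signal 65.9, q = 0.00800), 1474 in replicate 1 (signal 30.0, q = 0.0173) and 1165 in replicate 2 (signal 39.5, q = 0.00816). An upstream region, with its summit 1017 bp before the start, ranked 1746 (signal 58.0, q = 0.0221), 1938 in replicate 1 (q = 0.0338) and 3599 in replicate 2 (q = 0.174). Both lay in regions of both replicates; the intronic one reached q ≤ 0.05 in each, and the upstream one did so in replicate 1 only.

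Part of the cysl-3 sequence is repeated in the genome. The last bases of the intronic region, from base 317 to base 430 of it, matched 117 other places at 90% identity or more over at least 100 bp, none of them reaching the summit. The weaker intronic region at rank 7679 (q = 0.480) matched 38 other places, all of which covered its summit. Reads from such copies can be placed at more than 1 position, and the part of this in the values of cysl-3 was not tested. The strongest regions of the other 8 members had no such match.

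cysl-1, which frees HIF-1 from EGL-9 under sulfide, had 1 pooled region, in a coding exon 871 bp downstream of its start at X, summit 9953662. It ranked 4445 in the pooled list (signal 42.0, q = 0.221), 18265 in replicate 1 (signal 12.9, q = 0.803) and 2471 in replicate 2 (signal 30.7, q = 0.0824). cysl-2, a known target of HIF-1, had its strongest region in a coding exon 406 bp downstream of its start at II, summit 14494045, at rank 3985 (signal 43.5, q = 0.185). Here replicate 1 had the stronger call, at rank 1679 (signal 28.8, q = 0.0247), and replicate 2 was at rank 13136 (signal 17.5, q = 0.762). The weaker cysl-2 region, 1315 bp upstream at rank 7566 (q = 0.474), lay in a region of replicate 2 (q = 0.420) and in none of replicate 1. The exon region of cysl-1 was thus the higher ranked in replicate 2, and that of cysl-2 in replicate 1.

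Of the sulfide oxidation genes, sqrd-1 had the only pooled region among all members that lay within 500 bp of a first transcript start and reached q ≤ 0.01. Its summit at IV 14219838, in a region from 14219623 to 14220052, was 33 bp upstream of the start. It ranked 999 in the pooled list (signal 70.5, q = 0.00651), 1432 in replicate 1 (signal 30.2, q = 0.0178) and 1561 in replicate 2 (signal 35.8, q = 0.0176). The replicate summits lay 41 bp and 9 bp downstream of the pooled one, so that of replicate 1 fell 8 bp inside the gene. Of all protein-coding genes 5.94% had an equally strong or stronger pooled region. The remaining 3 sqrd-1 regions had q-values from 0.639 to 0.841. The one 1141 bp upstream shared sequence with 25 other places, 3 of which covered its summit, and that summit lay in an annotated pseudogene.

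ethe-1, at IV from 9506936 to 9508761, had its strongest region 1839 bp upstream at rank 3810 (signal 44.1, q = 0.172), which was 31 bp from the start of its neighbour C33A12.4. Replicate 1 had it at rank 3292 (signal 23.6, q = 0.123) and replicate 2 at rank 15450 (signal 16.3, q = 0.828). The region near the start of ethe-1 itself, 162 bp upstream, ranked 12411 (signal 28.7, q = 0.692), with q-values of 0.932 in replicate 1 and 0.812 in replicate 2. No list thus held a region of low q-value near the ethe-1 start.

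**Figure D3:**
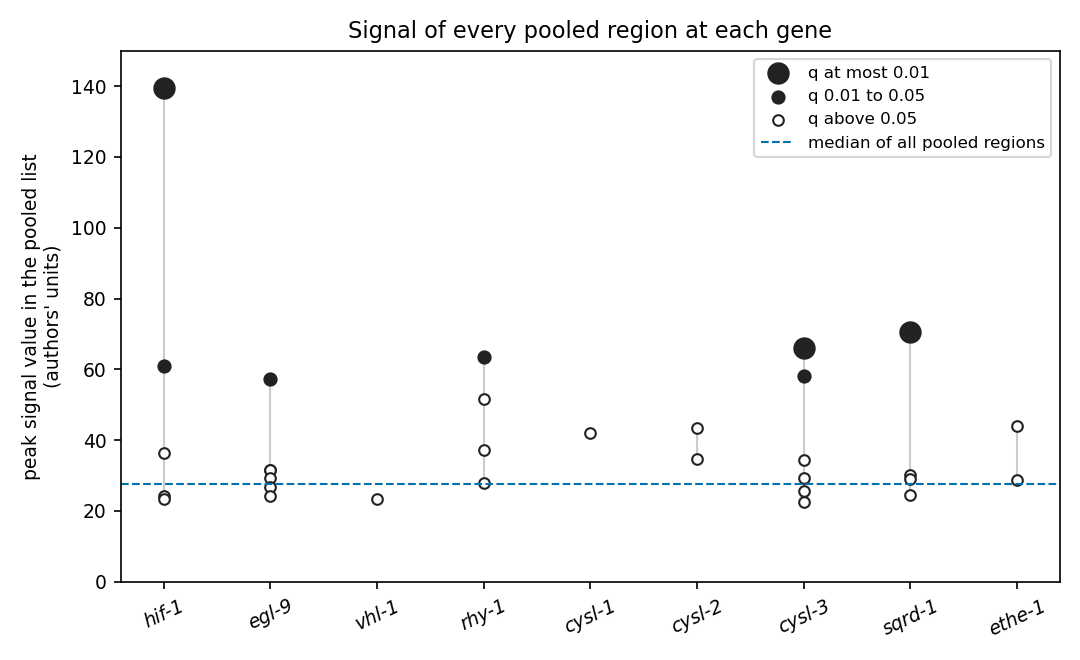
Signal of each of the 31 pooled regions by gene, in the authors' units on a linear axis; large filled circles are at q ≤ 0.01, small filled ones up to 0.05 and open ones above, and the dashed line is the median of all pooled regions, 27.5. The hif-1 upstream region at 139.5 stands above the strongest regions of sqrd-1 (70.5), cysl-3 (65.9), rhy-1 (63.5) and egl-9 (57.2).

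Over the members, 8 of 9 had the summit of their strongest pooled region inside a region of both replicates, against 35.6% of all protein-coding genes. vhl-1 was the exception. That share also counts genes without any pooled region, which cannot qualify, whereas all 9 members had one. Of the 13136 genes with a pooled region, 7106 met this condition. When the replicate regions had to reach q ≤ 0.05 themselves, 3 of 9 were left, hif-1, cysl-3 and sqrd-1, against 6.35% of all genes. These were 1268 of the 13136 genes with a pooled region. At q ≤ 0.01 in a replicate's own list there was 1 member in replicate 1, hif-1, against 5.62% of all genes. In replicate 2 there were 3 members, hif-1, rhy-1 and cysl-3, against 7.49%. Of the 31 pooled regions 17 had their summit in a region of both replicates (39.8% of all pooled regions did), 5 in replicate 1 only, 7 in replicate 2 only and 2 in neither.

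The 7 elements were searched on both strands within 100 bp of each summit; regions that overlap can share a match. TGATAAG, the DAF-16 associated element through which PQM-1 is known to act, was present at 2 of the 31 pooled regions, against 6.03% of all pooled regions and 11.8% of those at q ≤ 0.01. The share at the members, 6.45%, was close to that of all pooled regions. At rhy-1 TGATAAG lay on the minus strand at II from 9160342 to 9160348, 5 bp from the upstream summit. At cysl-3 it lay on the plus strand at V from 3774995 to 3775001, 12 bp from the intronic summit. Each TGATAAG also contains GATAA, the core shared by GATA factor sites, which was present at 14 of 31 regions, against 35.8% of all and 40.5% of those at q ≤ 0.01. The strongest regions of hif-1, egl-9 and sqrd-1 lacked TGATAAG in this window, and sqrd-1 had GATAA 58 bp from its summit.

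The cores of the hypoxia response element, ACGTG and GCGTG, were present at 16 of 31 regions, against 34.3% of all pooled regions. Of the 1241 pooled regions at q ≤ 0.01, 620 held 1 of these cores, a share close to the 51.6% at the members. ACGTG was at 13 of 31 (41.9%), against 20.8% of all pooled regions and 24.0% of those at q ≤ 0.01. GCGTG was at 6 of 31 (19.4%), against 17.8% of all and 33.4% of those at q ≤ 0.01. A match of so few letters is a description of the sequence and not a site of HIF-1. The egl-9 upstream region held 2 copies of each core within 100 bp, the nearest 18 bp from the summit, and a GAGAGAGA on the minus strand 82 bp from it. GAGAGAGA was present at 2 of 31 regions, both upstream of egl-9, against 4.02% of all and 11.8% of those at q ≤ 0.01. At sqrd-1 an ACGTG on the plus strand lay 6 bp from the summit, at IV from 14219828 to 14219832. The rhy-1 upstream region held both kinds of element, TGATAAG beside its summit and ACGTG 87 bp from it. CACGTG, the E-box, which contains ACGTG on both strands, was at 2 of 31 regions, against 5.13% of all and 6.93% of those at q ≤ 0.01. GTAAACA, to which DAF-16 itself is known to bind, was at 2 of 31, against 2.27% of all and 3.14% of those at q ≤ 0.01, namely 94 bp from the strongest sqrd-1 summit and 77 bp from the upstream cysl-3 summit.

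**Figure D4:**
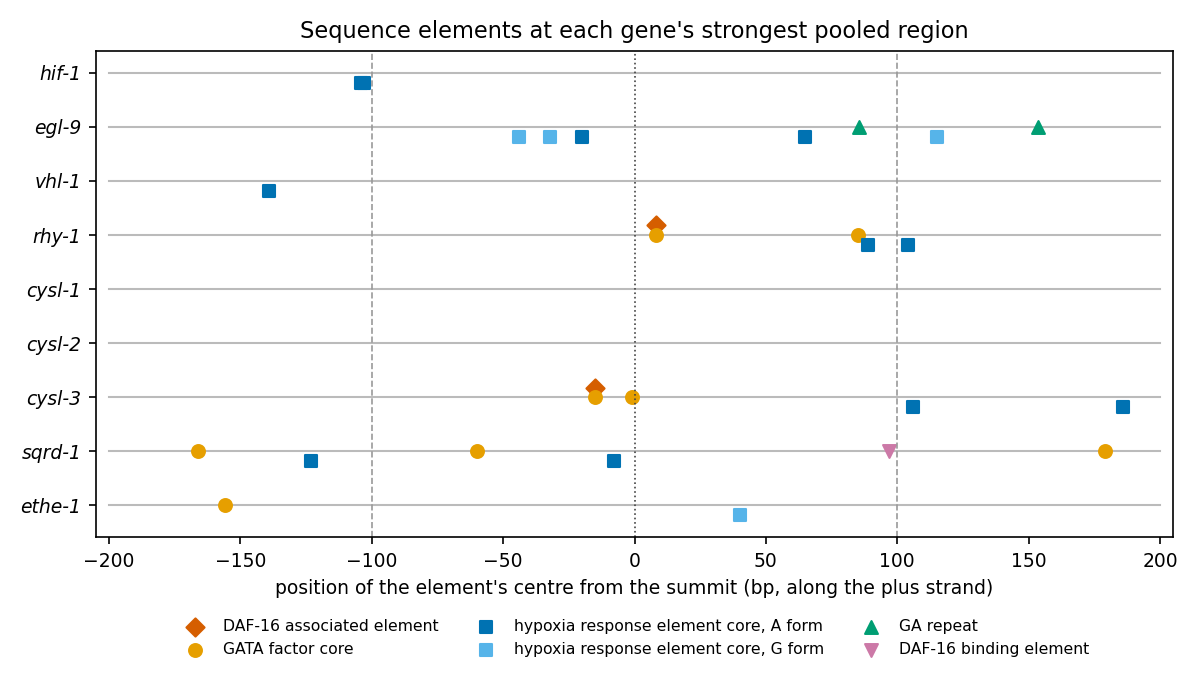
Sequence elements on either strand around the strongest pooled summit of each gene, with the position of each element's centre in bp from the summit on the horizontal axis and dashed lines at 100 bp to either side. The DAF-16 associated element lies close to the summits of rhy-1 and cysl-3, and the hypoxia response element cores cluster at egl-9; cysl-1 and cysl-2 show no element.

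The wider pathway was covered by 3 lists with 43 loci in all, of which 7 (16.3%) reached q ≤ 0.01 in the pooled list, against the 7.21% of all genes given above. Using the list of replicate 1 alone these were 3 and of replicate 2 alone 4, against 5.62% and 7.49% of all genes. The list of HIF-1 partners and regulators shared nhr-57 and phy-2 with that of genes regulated by HIF-1. It also took in a gene that acts beside HIF-1, and 3 of its 12 genes had a pooled region at q ≤ 0.01. These were nhr-49, a nuclear receptor that acts in a hypoxia response beside HIF-1 (rank 672, signal 81.9, q = 0.00670), swan-1, a WD repeat protein that binds EGL-9 (rank 777, signal 77.2, q = 0.00708), and aha-1, which encodes the partner of HIF-1 (rank 987, signal 70.9, q = 0.00558). The aha-1 summit was nearer to the start of C25A1.15. rbx-1, the RING subunit of cullin ligases, followed at rank 1311 (q = 0.0111), and cyp-36A1 had no pooled region.

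Among 13 genes regulated by HIF-1, 2 (15.4%) reached q ≤ 0.01 in the pooled list, against 7.21% of all genes. ftn-2, which encodes a ferritin, had a region 1196 bp upstream (rank 592, signal 86.0, q = 0.00592) with 2 copies of TGATAAG. smf-3, which encodes an intestinal divalent metal transporter, had one 31 bp downstream of its start (rank 745, signal 78.5, q = 0.00604). efk-1, the kinase of elongation factor eEF2, and gst-19, a glutathione transferase gene, followed at ranks 2422 and 2440. The ferritin gene ftn-1 had no pooled region.

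Of 20 loci of transsulfuration and sulfur amino acid metabolism, 2 (10.0%) reached q ≤ 0.01 in the pooled list, against 7.21% of all genes. cbs-2, a cystathionine beta-synthase gene, had its summit in a coding exon, nearest to the start of Y59C2A.3 (rank 773, signal 77.3, q = 0.00712), and ahcy-1, which encodes adenosylhomocysteinase, had one 1004 bp upstream (rank 1205, signal 65.5, q = 0.00789). mpst-3, a mercaptopyruvate sulfurtransferase gene, had a region with TGATAAG 13 bp downstream of its start (rank 1540, q = 0.0146), and metr-1, the methionine synthase gene, followed at rank 2820 (q = 0.0818). The remaining genes of this list had q-values of 0.240 or more, and cbs-1, cth-1, suox-1, mpst-2, mpst-4 and both loci named mpst-6 had no pooled region.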

How the data were processed

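Anti-GFP chromatin immunoprecipitation was sequenced by the authors in 2 biological replicates of 1 group. The authors deposited narrowPeak lists in ce11: relaxed calls against a control, 1 list per replicate and 1 from pooling them, and a reproducible list chosen from them by irreproducible discovery rate. This follows from the README files and from how the deposited lists are named. The deposited signal is the authors' peak value, not scaled between lists, and the deposited −log10 q-value is their false discovery rate per region. Which aligner and peak caller were run is not given in the sources used here. The ce10 lists were not used. Depth is unknown, so its precision cannot be stated.

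From these, regions were ranked by signal and assigned to genes of Ensembl release 115 (WBcel235), whose coordinates correspond to ce11; 0 regions lay beyond a chromosome end. Letters came from the RefSeq genome of that assembly. Copies were searched with BLAST+ 2.17.0. Scripts in Python 3.11.15 with pandas 2.3.3, numpy 2.4.6 and matplotlib 3.10.9 were tested on simulated data. No statistical test was made, since there is 1 group; counts stand beside those over all genes or regions.

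The members and lists were chosen with earlier results of these data known. All members were named, and of the wider lists the 4 genes with the strongest pooled region and any at q ≤ 0.01. Alternatives were other windows, q-values, overlaps, element widths and each replicate alone.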

Additional observations from a re-analysis of the deposited data

How the results depend on the processing

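Of 52 values recomputed under alternatives, 30 stayed within 1.5 times the reported count or, for the median rank, within 1 SD of the replicates. No paired analysis was possible because there is 1 group. With promoters only (1000 bp upstream to 200 bp downstream), 6 of 9 members had a region, against 41.2% of all genes, and 1, sqrd-1, had one at q ≤ 0.01, against 4.67%. The pooled regions at members then numbered 8, and 0 members were in the reproducible list, against 2.75%. The median best rank was 12411, in place of 1807, with the 3 members without a region counted last, and 8138.5 over the other 6. With 2000 bp upstream, the median best rank over all genes with a pooled region was 8399. That all-gene median was not computed for the other windows. With 500 bp upstream, the regions numbered 19, the median rank was 4445 with vhl-1, which had none, counted last, and 0 members were in the reproducible list, against 2.78%. With 5000 bp upstream, 5 members reached q ≤ 0.01, against 10.6% of all genes, the median rank was 1188 and 2 members were in the reproducible list, against 6.24%. The windows for the reproducible list were chosen after seeing the data. Members at q ≤ 0.05 were 5, at q ≤ 0.001 they were 0, since no pooled q-value is that small, and in the reproducible list 1. Using 1 replicate alone, members with a region ranged from 8 to 8, those at q ≤ 0.01 from 1 to 3, regions from 27 to 29, the median rank from 1679 to 2471 with vhl-1 counted last, wider pathway loci from 3 to 4, regions with TGATAAG from 2 to 3 and with ACGTG or GCGTG from 11 to 14. Members found in both replicates at q ≤ 0.05 were 3. Wider pathway loci were 3 with promoters only. TGATAAG was at 4 regions within 200 bp and at 4 over whole regions, and ACGTG or GCGTG at 10 within 50 bp. At the wider settings the upstream rhy-1 TGATAAG, at II from 9160342 to 9160348, is counted for 2 overlapping regions. Shares over all regions were not computed for these widths or for elements in 1 replicate alone. The share of all genes with any region in 1 replicate alone was not computed either. Read depth is unknown, so a region missing from a replicate's list may be below what that library could show; the cause of these differences was not tested.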

Other observations

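Beyond the 2000 bp limit, 2 members had a pooled region at q ≤ 0.01 between 2000 and 5000 bp upstream. The share of all genes with a region in that stretch alone was not computed. With the gene body plus 5000 bp upstream, 5 of 9 members had a region at that q, against 10.6% of all protein-coding genes. The far upstream region of cysl-2, at II from 14496807 to 14497236 with its summit 2571 bp upstream, was stronger than any region inside the members' windows. It ranked 67 in the pooled list (signal 175.1, q = 0.00190), 34 in replicate 1 (q = 0.00205) and 196 in replicate 2 (q = 0.00465), and belongs to the reproducible list. The nearest transcript start was that of dhs-8, a gene of the short-chain dehydrogenase family, 1004 bp away, and the noncoding RNA genes K10H10.11 and K10H10.14 lay within 300 bp of the summit. The far upstream region of cysl-1, at X from 9958555 to 9958984, was 4237 bp upstream of cysl-1 and 190 bp from the start of ZC506.1. It ranked 849 in the pooled list (signal 75.0, q = 0.00648), 856 in replicate 1 and 885 in replicate 2. Neither held TGATAAG within 100 bp of its summit.

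The RefSeq annotation gives the product sulfide:quinone oxidoreductase to a further gene, Y9C9A.16, at IV from 4973521 to 4976125, which was not counted among the members. Whether this gene is the listed sqrd-2 could not be told from the annotations used. Y9C9A.16 had no pooled region and none in replicate 2, and 1 in replicate 1, at rank 5028 (signal 20.8, q = 0.241).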
